A study of Mus musculus with 8 samples.

Results

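The members were 7 genes of the JAK-STAT pathway around JAK2: Jak1, Jak3, Stat5a, Stat5b, Socs1, Ptpn2 and Il7r. They were chosen by name, as partners and brakes of the kinase in the SEC31A-JAK2 fusion, and were measured as 6 fixed windows of mouse build mm9, because Stat5a and Stat5b lie next to each other and share 1 window. The windows held 117 of 235402 measured positions. The question was whether DNA of mice with a JAK2-driven tumour also had gains or losses at these loci. In the fit of the processed signals no locus was called as gained or lost in any of 4 comparisons, no called segment touched a locus, and 2 of 48 locus means on single arrays, both at Jak3 and with opposite signs, reached an absolute log2 ratio of 0.25. Few features of the whole genome were called either (between 0 and 32 of 22128 autosomal features in a comparison). Of other stretches of the genome, which held fewer positions each, 5.47% reached 0.25. With another background correction (normexp), 3 locus values reached 0.25, all above 0 and all in M12, and the low Jak3 value was lost.

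JAK kinases sit on the inner tails of cytokine receptors and are switched on when a ligand brings receptor chains together. IL7R, the alpha chain of the interleukin-7 receptor, carries JAK1, and its partner, the common gamma chain, carries JAK3. Signalling through this pair keeps developing T cells alive, and activating changes of the pathway are known in T-lymphoblastic disease. The kinases phosphorylate STAT5A and STAT5B, which then enter the nucleus and turn on growth and survival genes. SOCS1 blocks JAK kinases in a feedback loop, and PTPN2 is a phosphatase that removes phosphate from JAK1, JAK3 and STAT5. A JAK2 fusion can phosphorylate STAT5 without a receptor. These arrays measure copy number, so point mutations, expression and phosphorylation are not covered.

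The 8 DNA samples came from Balb/c mice that carried SEC31A-JAK2 after bone marrow transplantation, with 1 array for each sample. Primary transplanted mice with T-lymphoblastic lymphoma (T-LBL) gave 3 samples, M7 and M9 from spleen and M12 from a neck lymph node. Secondary T-LBL derived from mouse 12 gave 4 samples, of which M12.50 was a neck lymph node while M12.53, M12.52 and M12.49 were pancreas. M10, bone marrow with myeloid hyperplasia, was the 1 sample without lymphoma. Every sample was labelled with Cy5 and hybridised together with normal wild-type Balb/c DNA in Cy3, and no dye swap was labelled. All samples shared the fusion, the strain and the transplantation, so there was no transplanted mouse without the fusion. The vector and promoter of the fusion, the ages of the mice and the share of tumour cells in each organ are not given in the sources used here, and expression of T-cell markers is not measured on DNA arrays. The 5 mouse 12 tumours have 1 origin, so tests over arrays count related tumours as separate samples.

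Values are log2 ratios of sample over reference, centred on the autosomal median of each array. One copy of a pair lost in every cell would give −1, and one copy gained would give 0.58. Errors of a value from 1 array are standard errors (SE) over its positions and take neighbouring positions as independent. The arrays differed in quality. The SD of neighbouring positions was 0.47 in M7 and 0.43 in M12.52, against 0.22 to 0.28 in the other 6 arrays, and in M7 only 55.2% of the reference values were well above background. M7, M9 and M12.52 lay on slides whose barcode also occurred on an array scanned earlier. Over all autosomal positions, M12.53 correlated negatively with each of the 6 arrays other than M7 (r between −0.51 and −0.21), while those 6 arrays correlated with each other at r between 0.27 and 0.79. M7 correlated with those 6 at r between −0.25 and −0.11. The labels give the same dyes for M12.53 as for the other arrays, and the loss on chromosome 12 (107329523 to 109293982, mm9) that the mouse 12 tumours shared had a negative ratio in M12.53 as well (−0.79). Its labelled direction was therefore kept. Results are also given with its sign turned, as a description, although turning would make that loss a gain.

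Il7r had the highest mean of the 6 loci. Its window was chr15:9400000-9500000 (mm9, 14 positions). In the gene order of assembly GRCm38.p6, the gene lies between Capsl and Spef2. Whether this or another window reaches into neighbouring genes was not checked. The primary lymphomas had log2 ratios of 0.11 ± 0.19 in M7, 0.10 ± 0.07 in M9 and 0.05 ± 0.07 in M12 (mean ± SE over positions). The secondary lymphomas had 0.01 ± 0.06 in M12.53, 0.11 ± 0.13 in M12.52, 0.14 ± 0.06 in M12.50 and 0.11 ± 0.07 in M12.49. M10 had 0.09 ± 0.06, so the myeloid sample lay inside the range of the lymphomas. All 7 lymphomas were above 0, which was also the case in 1.37% of 22122 autosomal stretches of 10 neighbouring positions, and 1.12% of the stretches were below 0 in all 7. With the sign of M12.53 turned, 6 of 7 were above 0, and with only values well above background in both dyes M7 was at −0.27 over 9 positions. The group means were 0.09 ± 0.03 (SD, n = 3) in primary and 0.09 ± 0.06 (SD, n = 4) in secondary T-LBL. Neither differed from the reference in the limma fit (adjusted p = 0.968 and 0.834, unadjusted 0.135 and 0.0685). Against the flanks, the 1 Mb on either side, the Il7r window was higher by 0.08 ± 0.20 in M7, 0.07 ± 0.07 in M9, 0.13 ± 0.07 in M12.49 and 0.15 ± 0.13 in M12.52, and lower in M12.53 (−0.02 ± 0.06).

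Jak1, the kinase bound to IL7R and to many other receptors, was the flattest locus along with Il7r, with an SD of 0.05 over the 7 lymphomas. Its window was chr4:100800000-100970000 (mm9, 22 positions), and the gene lies between Raver2 and Ak4. The primary lymphomas had log2 ratios of 0.07 ± 0.08 in M7, −0.06 ± 0.05 in M9 and −0.00 ± 0.05 in M12. The secondary lymphomas had −0.06 ± 0.05 in M12.53, −0.09 ± 0.12 in M12.52, 0.00 ± 0.04 in M12.50 and −0.00 ± 0.05 in M12.49. M10 had −0.04 ± 0.07. Every 95% interval of Jak1 included 0. The group means were 0.00 ± 0.06 (SD, n = 3) in primary and −0.04 ± 0.04 (SD, n = 4) in secondary T-LBL, and the groups overlapped. M7, M9, M12.49 and M12.52 had a called segment elsewhere on chromosome 4, and the nearest lay 10.8 to 10.9 Mb from Jak1.

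Jak3, the kinase bound to the common gamma chain, varied most between the lymphoma arrays. Its window was chr8:74170000-74250000 (mm9, 16 positions), and the gene lies between Unc13a and Insl3. The primary lymphomas had log2 ratios of −0.31 ± 0.09 in M7, −0.08 ± 0.06 in M9 and 0.27 ± 0.07 in M12. The secondary lymphomas had −0.08 ± 0.07 in M12.53, 0.11 ± 0.10 in M12.52, −0.25 ± 0.06 in M12.50 and 0.02 ± 0.08 in M12.49. M10 had −0.19 ± 0.07, below 5 of the 7 lymphomas. M7 and M12, at the ends of this range, were both primary tumours, and the secondary tumours fell between them. M7 and M12 were also each the only array scanned on its day, so tumour and scan cannot be told apart here. The mean of the secondary tumours lay 0.32 below the M12 value, and no called segment covered Jak3 in M12. The group means were −0.04 ± 0.29 (SD, n = 3) in primary and −0.05 ± 0.15 (SD, n = 4) in secondary T-LBL, so the spread inside each group exceeded the difference between them.

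**Figure D1:**
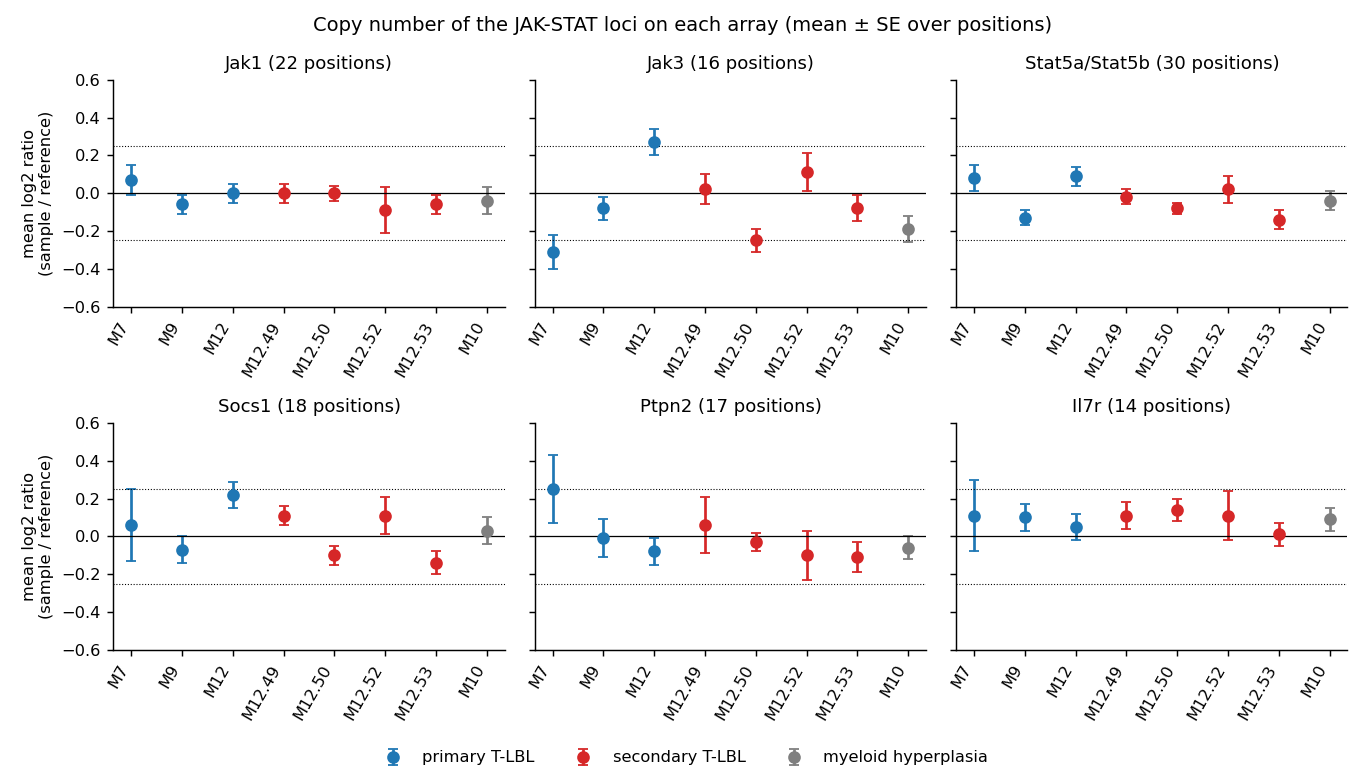
Mean log2 ratio (sample over reference) of each locus on each array, with SE over positions; colours mark primary T-LBL, secondary T-LBL and the myeloid sample, and dotted lines mark −0.25 and 0.25. Jak3 runs from −0.31 in M7 to 0.27 in M12, while Jak1 stays between −0.09 and 0.07.

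With the processed signals, the low Jak3 value of M7 was not shared with its neighbourhood, and the high value of M12 was partly shared. The M7 value was lost with normexp, where Jak3 was at −0.01 and at −0.11 against its flanks, while M12 stayed high at 0.33. In M7 the flanks averaged 0.01, so Jak3 lay at −0.32 ± 0.09 against them. This was the 1 of 48 locus values that differed from its flanks by 0.25 or more, where 4.33% of stretches did so over all arrays and 16.4% in M7. In M7, 66.7% of the Jak3 reference values were well above background. Each dye, centred on its array, was also set against the median of the same positions over the 8 arrays. In M7 the reference dye was brighter than that by 0.56 and the sample dye by 0.29 on the log2 scale. With only values well above background in both dyes, Jak3 in M7 was at −0.36 over 10 positions and at −0.26 against its flanks. With the log ratios of the deposited series table it was at −0.39 and −0.42. The part of signal quality in the M7 value was not tested. In M12 the flanks averaged 0.13, and Jak3 lay at 0.14 ± 0.07 against them. In M12.50 the flanks averaged −0.11 and Jak3 lay at −0.14 ± 0.06. The Jak3 means followed the median of all chromosome 8 positions across the 8 arrays (r = 0.95), although that median moved only between −0.01 and 0.02. The arrays share 1 reference and 5 of them 1 origin, so this r is a description.

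**Figure D2:**
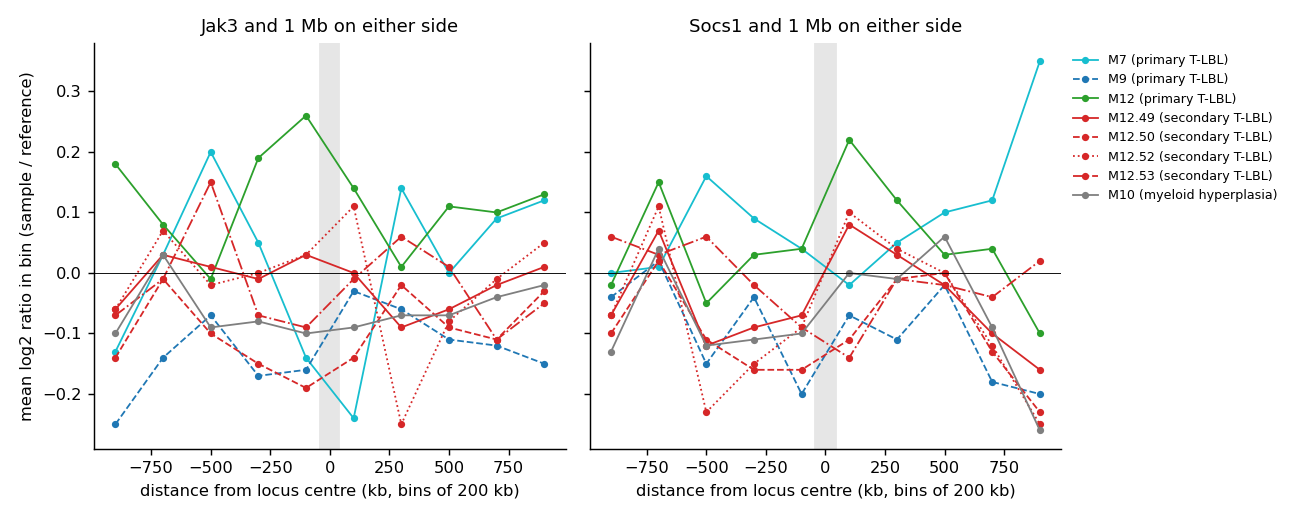
Mean log2 ratio in bins of 200 kb within 1 Mb of the centre of the Jak3 and Socs1 windows (grey), 1 line for each array. Around Jak3, M12 lies above 0 in 9 of 10 bins, and M7 is negative in both bins that hold the window.

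Stat5a and Stat5b, the transcription factors that JAK kinases activate, share a window (chr11:100600000-100800000, mm9, 30 positions) between Ghdc and Stat3. The primary lymphomas had log2 ratios of 0.08 ± 0.07 in M7, −0.13 ± 0.04 in M9 and 0.09 ± 0.05 in M12. The secondary lymphomas had −0.14 ± 0.05 in M12.53, 0.02 ± 0.07 in M12.52, −0.08 ± 0.03 in M12.50 and −0.02 ± 0.04 in M12.49. M10 had −0.04 ± 0.05. M9, M12.50 and M12.53 were the low samples, and their intervals lay below 0, but with its sign turned M12.53 would be the highest sample at 0.14. In M9 and M12.50 the window differed from its flanks by no more than the error (−0.04 ± 0.04 and −0.01 ± 0.03), and in M12.53 the window lay at −0.11 ± 0.05 against its flanks. The group means were 0.01 ± 0.12 (SD, n = 3) and −0.05 ± 0.07 (SD, n = 4) in primary and secondary T-LBL, with overlapping values. The means of the window followed the median of chromosome 11 over the 8 arrays (r = 0.92), which ranged from −0.04 to 0.04.

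Socs1, the feedback inhibitor of JAK kinases, was not called as lost in any lymphoma. Its window was chr16:10740000-10830000 (mm9, 18 positions), and the gene lies between Clec16a and Tnp2. The primary lymphomas had log2 ratios of 0.06 ± 0.19 in M7, −0.07 ± 0.07 in M9 and 0.22 ± 0.07 in M12. The secondary lymphomas had −0.14 ± 0.06 in M12.53, 0.11 ± 0.10 in M12.52, −0.10 ± 0.05 in M12.50 and 0.11 ± 0.05 in M12.49. M10 had 0.03 ± 0.07. M12 was the highest and M12.53 the lowest sample, but turned M12.53 would be at 0.14 and M12.50 the lowest. Both groups of lymphomas held values on either side of 0. Against the flanks Socs1 was higher in M12 (0.19 ± 0.07), M12.49 (0.17 ± 0.06) and M12.52 (0.18 ± 0.11), at −0.00 ± 0.06 in M12.50 and lower in M12.53 (−0.12 ± 0.06). With the sign of M12.53 turned, its difference would be 0.12, but the shared chromosome 12 loss would then be a gain in M12.53. The group means were 0.07 ± 0.15 (SD, n = 3) in primary and −0.01 ± 0.13 (SD, n = 4) in secondary T-LBL. Unlike Jak3, Socs1 ran against the median of its chromosome (r = −0.80), which stayed between −0.02 and 0.02.

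Ptpn2, the phosphatase brake of the pathway, was not called as lost either. Its window was chr18:67790000-67910000 (mm9, 17 positions), and the gene lies between Psmg2 and Seh1l. The primary lymphomas had log2 ratios of 0.25 ± 0.18 in M7, −0.01 ± 0.10 in M9 and −0.08 ± 0.07 in M12. The secondary lymphomas had −0.11 ± 0.08 in M12.53, −0.10 ± 0.13 in M12.52, −0.03 ± 0.05 in M12.50 and 0.06 ± 0.15 in M12.49. M10 had −0.06 ± 0.06. M7 stood highest, with 47.1% of its reference values in the window well above background, and the other 6 lymphomas lay between −0.11 (M12.53, which would be at 0.11 turned) and 0.06. With only values well above background in both dyes, M7 was at 0.28 over 8 positions and at 0.39 against its flanks. With the log ratios of the deposited series table it was at 0.35 and 0.26. The position 37.7 kb from the centre of the window ran from −2.0 in M7 to 2.09 in M12.49. All 8 intervals of Ptpn2 included 0. The group means were 0.05 ± 0.17 (SD, n = 3) in primary and −0.05 ± 0.08 (SD, n = 4) in secondary T-LBL.

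Set against the rest of the genome, the share of locus values with a large mean did not exceed that of stretches. The stretches held 10 positions and the windows 14 to 30, so noise alone takes stretches past a threshold more often. An absolute mean of 0.25 or more was reached by 2 of 48 locus values (Jak3 in M7 and in M12), against 5.47% of stretches over the 8 arrays. The shares of stretches were 19.6% in M7, 3.47% in M9, 2.58% in M10, 1.43% in M12.53, 10.4% in M12.52, 2.67% in M12.50, 1.14% in M12.49 and 2.50% in M12. Just below the threshold lay Jak3 in M12.50 (−0.25 after rounding), Ptpn2 in M7 (0.25 after rounding) and Socs1 in M12 (0.22). At a threshold of 0.15, 6 of 48 values passed, against 21.3% of stretches, and at 0.4 there were 0 of 48, against 0.840%. The 48 means had a median of −0.00, with 25 below and 23 above 0.

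The intervals limit how large a change these data could hide. The lowest bound of a 95% interval among the 48 values was −0.50 (Jak3 in M7). If the ratio is proportional to copy number, this bound corresponds to loss of 1 of 2 copies in 58.5% of cells, and it was the 1 bound above 50%. Over the 45 intervals with a bound below 0, the median bound corresponded to 20.1% of cells. On the 5 mouse 12 arrays the chromosome 12 loss gives a measured scale, with means of −0.94 in M12.50, −0.79 in M12.53, −0.76 in M12.49, −0.69 in M12.52 and −0.64 in M12. The lowest bound at any of the 6 loci on these arrays was −0.37, and 0 of 30 intervals reached the value of that loss. On the side of gains, 1 of 48 intervals reached 0.58, that of Ptpn2 in M7 (upper bound 0.63). M7 and M9 have no such loss, so their share of tumour cells has no measure of this kind here.

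**Figure D3:**
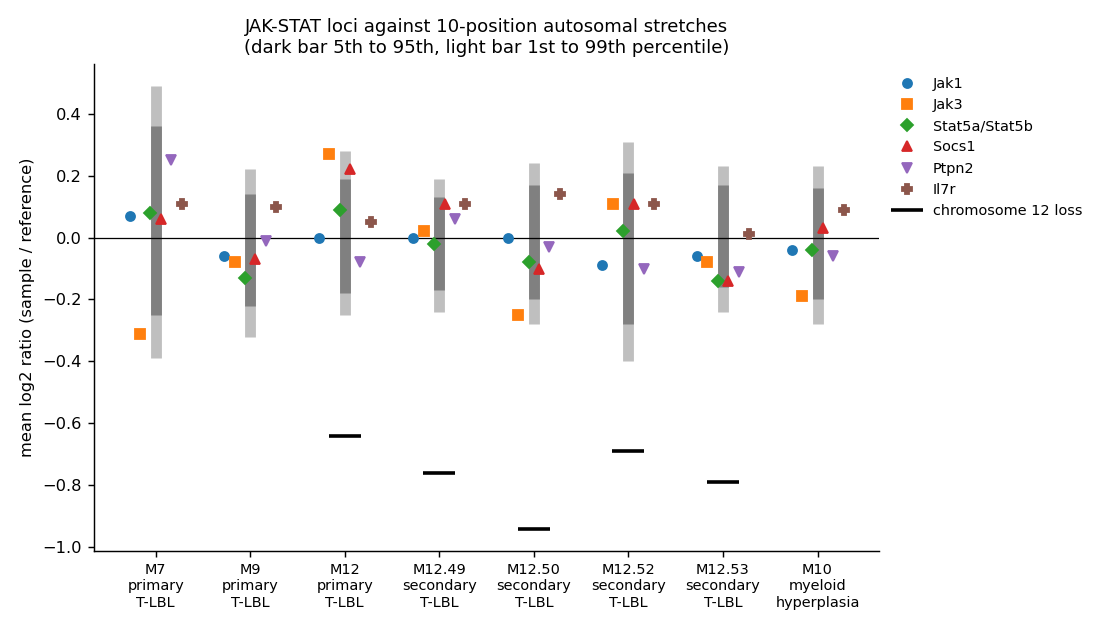
Mean log2 ratio of the 6 loci (symbols) on each array over the 5th to 95th (dark bar) and 1st to 99th percentile (light bar) of autosomal 10-position stretches; horizontal strokes mark the chromosome 12 loss of the mouse 12 tumours. The strokes lie between −0.94 and −0.64, and every locus lies above −0.32.

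No called segment touched a locus. Segmentation of each array gave 56 autosomal calls in all, and each of the 6 loci lay inside 1 long segment on all 8 arrays. These covering segments had means between −0.06 and 0.09, and the smallest spanned 50.7 Mb. Apart from chromosome 4, a call on the chromosome of a locus was made only in M9, on chromosome 11, 29.5 Mb from Stat5a and Stat5b. Segmentation needs runs of several positions, so a change of 1 or 2 positions would not be seen by it.

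Single positions showed no run that would mark a small deletion. No locus had 3 neighbouring positions at or below −0.5, or at or above 0.5, on any array, and the longest runs were of 2. Over all arrays, 0.602% and 0.707% of autosomal stretches of 10 positions held such a low or high run. Of 932 position values in the loci, 5 were at or below −1 (2 in M7 and 3 in M12.52) and 12 at or above 1, of which 9 were in M7. The noisy arrays thus held most of the extreme values. One position was at or below −0.5 in 4 or more lymphomas, against 1.19% of autosomal positions, and none of the 117 was at or above 0.5 in 4 or more, against 0.254%. It lies in the Jak3 window (A_53_P151559, chr8:74241491-74241550, mm9) and had the lowest lymphoma mean of that locus (−0.39). Its values were −1.04 in M12.52, −0.77 in M12.50, −0.72 in M12.49 and −0.50 in both M12 and M9, against 0.22 in M7 and 0.61 in M12.53, and M10 had −0.79. The myeloid sample was as low as the lymphomas, and M7 and M12.53 went the other way, as they did over the genome.

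The lowest and highest positions of each locus, by lymphoma mean, mostly rested on 1 noisy array or had M12.53 apart from the rest. In Jak1, the highest position (chr4:100806269-100806328) was at −0.37 in M12.53 but between 0.34 and 0.86 in the other 6 lymphomas, and at 0.55 in M10. The lowest of Jak1 (chr4:100825851-100825910, mean −0.36) was at −1.72 in M12.52 and between −0.48 and 0.03 in the other lymphomas. The highest of Jak3 (chr8:74202422-74202474) had a mean of 0.21, with −0.13 in M12.53 and 0.67 in M12. In Socs1, the lowest position (chr16:10774742-10774801, mean −0.51) was at −1.98 in M7 and between −0.32 and −0.20 in the other 6 lymphomas, with 0.23 in M10. The highest of Socs1 (chr16:10796426-10796479) had a mean of 0.26, with −0.16 in both M7 and M12.53. In Ptpn2, the lowest position (chr18:67855365-67855424, mean −0.26) was at 1.20 in M7 and between −0.72 and −0.19 in the other 6 lymphomas, M12.53 included. The highest of Ptpn2 (chr18:67897224-67897283) had a mean of 0.29, with −0.10 in M12.53. In Il7r, the highest (chr15:9413177-9413236) had a mean of 0.26 and reached 0.81 in M12.52, and the lowest (chr15:9473168-9473227) had a mean of −0.16. In the Stat5a and Stat5b window, the lowest (chr11:100638148-100638207) had a mean of −0.27 and the highest (chr11:100619622-100619681) a mean of 0.17. Over the 117 positions, M12.53 correlated with the 6 arrays other than M7 at r between −0.53 and −0.30.

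**Figure D4:**
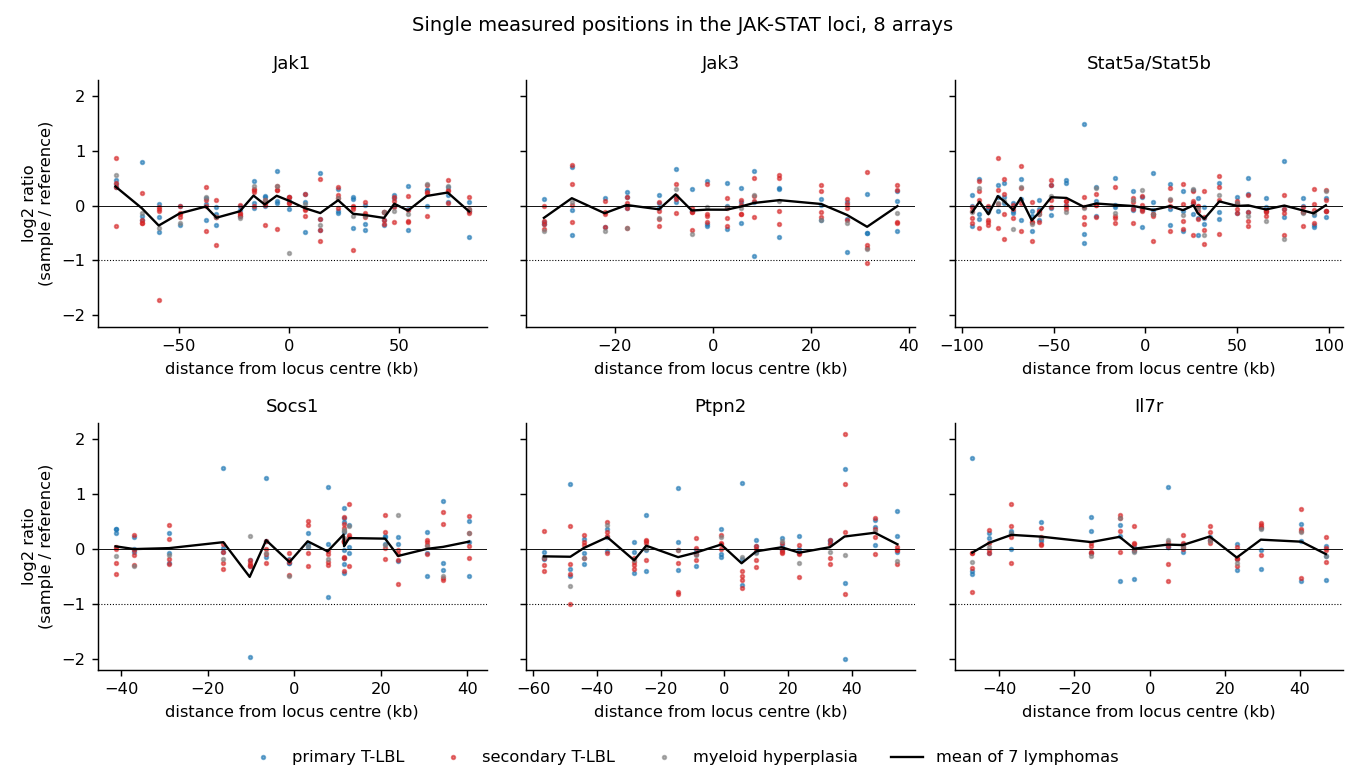
Log2 ratio of every measured position in the 6 windows on 8 arrays against distance from the window's centre; points are coloured by group, the line is the mean of the 7 lymphomas and the dotted line marks −1. The line stays near 0 in every window, with −0.51 in Socs1 as its lowest point and 0.35 in Jak1 as its highest.

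Secondary tumours were then compared with primary tumours. All secondary tumours derived from mouse 12, while M7 and M9 came from other mice. Passage into a second host and origin therefore cannot be told apart in this contrast. None of the 6 loci differed, and the groups overlapped at every locus, while they lay apart in 2.46% of stretches. Secondary minus primary was −0.04 for Jak1 (95% interval −0.20 to 0.11), −0.01 for Jak3 (−0.28 to 0.26), −0.07 for Stat5a and Stat5b (−0.25 to 0.11), −0.08 for Socs1 (−0.28 to 0.13), −0.10 for Ptpn2 (−0.29 to 0.10) and 0.01 for Il7r (−0.15 to 0.16). The median over the loci was −0.06, against −0.02 over all features. Adjusted p in the limma fit lay between 0.997 and 0.999, and two-sided exact permutation p over 35 splits, which cannot fall below 0.0286, lay between 0.343 (Stat5a and Stat5b) and 0.914 (Jak3). Among all 22128 autosomal features 0% were called in this contrast, with 1.51% at an unadjusted p under 0.05, where the loci had 0 of 6. Turning the sign of M12.53 left 0 loci called and changed the differences to −0.01 for Jak1, 0.03 for Jak3, 0.00 for Stat5a and Stat5b, −0.01 for Socs1, −0.04 for Ptpn2 and 0.00 for Il7r. With the scan as a block, 4 loci changed sign (Jak1, Jak3, Stat5a and Stat5b, and Socs1). That estimate rests on the scan that held both groups, so scan and choice of tumours cannot be told apart. Among the arrays of the scan that held both groups, M12.49 and M12.52 minus M9 was 0.14 for Jak3, 0.13 for Stat5a and Stat5b and 0.18 for Socs1, and it was 0.01 for Jak1, −0.01 for Ptpn2 and 0.01 for Il7r. M12.50 and M9 shared a slide barcode but not a scan. Of these, M12.50 was lower by 0.17 at Jak3 and differed by at most 0.06 at the other loci. The mean of the secondary tumours minus M12 was −0.03 for Jak1, −0.32 for Jak3 and −0.14 for Stat5a and Stat5b. It was −0.23 for Socs1, 0.04 for Ptpn2 and 0.04 for Il7r. M12 was the only array scanned on its day, so passage and scan cannot be told apart in this difference, which was not tested.

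Against the normal reference, 0 of 6 loci were called in primary T-LBL and 0 of 6 in secondary T-LBL. The calls over all features were 0.00452% and 0.145%, and at an unadjusted p under 0.05 they were 3.59% and 4.87%, with 0 of 6 loci in both groups. The primary estimates ran from −0.04 (Jak3) to 0.09 (Il7r), and their widest interval was that of Jak3 (−0.24 to 0.16). The secondary estimates ran from −0.05 to 0.09, and their widest interval was again that of Jak3 (−0.23 to 0.13). The median over the loci was 0.03 for the primary and −0.04 for the secondary tumours, against 0.01 and −0.01 over all features. All of these intervals stop short of −1. They are intervals of group means, so they do not bear on a loss in 1 tumour of a group. With the sign of M12.53 turned, the secondary estimates were −0.01 for Jak1, −0.01 for Jak3, 0.02 for Stat5a and Stat5b, 0.06 for Socs1, 0.01 for Ptpn2 and 0.09 for Il7r, and 0 of 6 were called. The normexp signals gave 1 call in primary T-LBL, Il7r at 0.20 with an adjusted p of 0.0474, where 2.28% of all features were called. Array weights gave 4 calls in secondary T-LBL, but with them 86.0% of all features were called, so those calls say little about these loci.

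Primary T-LBL was set against the myeloid sample M10, whose 1 array has no spread of its own and took that of the lymphoma groups. The differences ran from −0.01 (Il7r) to 0.15 (Jak3, 95% interval −0.26 to 0.56), and 0 of 6 loci were called (adjusted p = 1.0 at each). Their median was 0.05, against 0.02 over all features. Over all features 0% were called, with 0.795% at an unadjusted p under 0.05 and 0 of 6 loci. M7 and M10 shared a slide barcode but not a scan. M7 minus M10 was 0.31 at Ptpn2, −0.12 at Jak3, 0.11 at Jak1, 0.12 at Stat5a and Stat5b, 0.03 at Socs1 and 0.02 at Il7r.

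**Figure D5:**
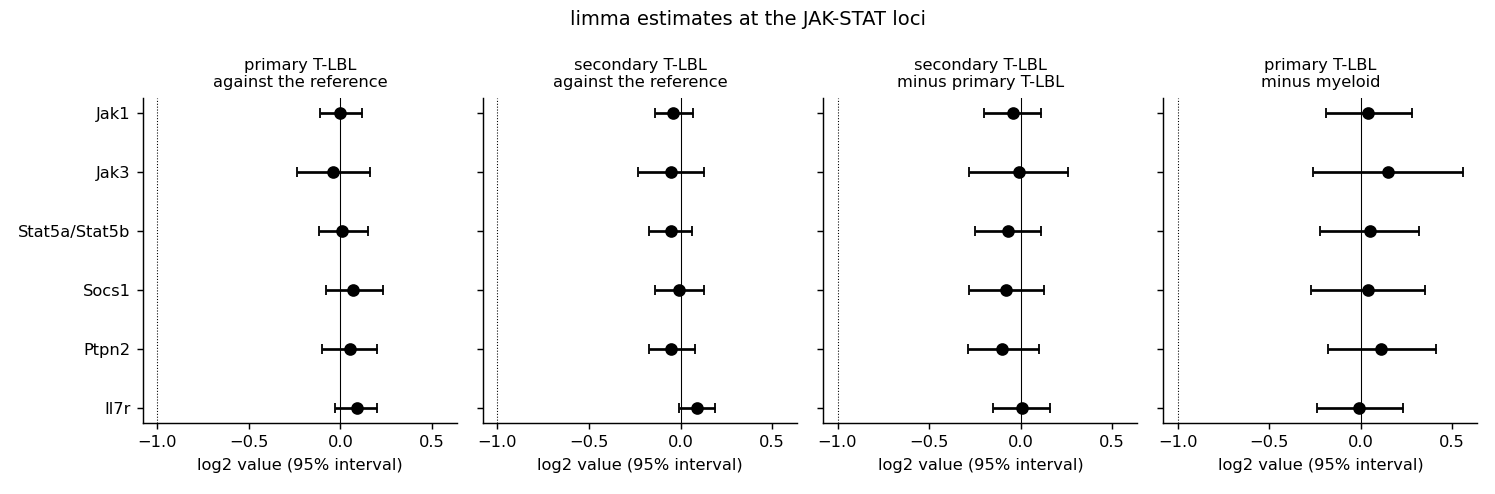
limma estimates with 95% intervals for each locus in the 4 contrasts, on the log2 scale; the dotted line marks −1, the value of 1 copy lost in every cell. Every interval includes 0, and the lowest bound is −0.29 (Ptpn2, secondary minus primary T-LBL).

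Testing each of the 117 positions by itself gave the same picture. In the fit over autosomal positions, 0 of 117 were called in each contrast, where the share of all positions called was 0% for primary T-LBL against the reference, 0.0271% for secondary T-LBL against the reference, 0% for secondary minus primary and 0% for primary minus myeloid. At an unadjusted p under 0.05 there were 4 of 117 for primary T-LBL (4.22% of all positions), 5 of 117 for secondary T-LBL (4.69%), 1 for secondary minus primary (0.990%) and 1 for primary minus myeloid (0.518%).

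Ordered by the mean over the 7 lymphomas, the loci were Jak3 (−0.05), Stat5a and Stat5b (−0.02), Jak1 (−0.02), Ptpn2 (−0.00), Socs1 (0.03) and Il7r (0.09). Neighbours in this order differed by 0.01 to 0.06, always less than the SD of their difference over the lymphomas (0.08 to 0.19). With the sign of M12.53 turned, Jak1 and the Stat5a and Stat5b window changed places. Across the 8 arrays the locus most like the Stat5a and Stat5b window was Socs1 (r = 0.89), and 2.26% of stretches were at least as like it. Jak1 was most like Ptpn2 (r = 0.83), with 2.12% of stretches as alike, Jak3 most like Socs1 (r = 0.62), with 9.86%, and Il7r most like Ptpn2 (r = 0.41), with 14.8%. Turning the sign of M12.53 gave r = 0.83, 0.83, 0.74 and −0.14 for these pairs. M7 had the largest weight (−0.84) in the first component of variation over all stretches, which held 45.2% of the variance. Jak1, Ptpn2 and Il7r followed the medians of their chromosomes little (r = −0.09, 0.13 and 0.27).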

How the data were processed

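Each sample was 1 Agilent 2-colour mouse comparative genomic hybridisation array. The deposited scanner files hold processed signal intensities of both dyes, background-subtracted and dye-normalised, per the file headers. The deposited series table holds log10 ratios of Cy5 over Cy3. Feature Extraction was version 9.1.1 per the submitters' processing notes and 10.5.1.1 per the file headers. M12, on mm8, took mm9 positions by probe name.

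Control and outlier spots were dropped, spots of a probe averaged, and log2(Cy5/Cy3) centred on the autosomal median. Locus means and 10-position stretches entered limma 3.58.1 (lmFit, eBayes; R 4.3.3) with 3 groups and Benjamini-Hochberg adjustment at 0.05 over 22128 autosomal features. The fit was also run on simulated data with independent arrays. The real arrays are related, so that run does not measure the errors of the fit here. Segments came from penalised least squares (penalty 6, at least 3 positions, merging below 0.15, call at 0.25 over 5 positions), with Python 3.11.15. Intensities have no read depth; the number of arrays limits the precision. The labels do not say that the secondary tumours grew in separate mice, so p-values measure only the spread between these samples, which may be partly technical.

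All members are named, and the lowest and highest position of a locus. Members, windows and tests were chosen with earlier results of these data known. Windows were not checked against mm9 gene annotation, and neighbours come from RefSeq gene order, in which all 7 genes were found by symbol. Other pathway genes were not analysed here. The files have median, not mean, spot signals, so normexp (offset 50) used medians. Alternatives were signal, summary, filter, centring, series table, scan, origin, weights and omitted arrays. The turned sign of M12.53, the 3 arrays on slides scanned before, the 2 noisiest arrays, and the alternatives for segments and flanks were chosen after seeing the data.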

Additional observations from a re-analysis of the deposited data

How the results depend on the processing

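Of 438 locus estimates under an alternative, 368 kept direction and call, 67 changed sign, and 5 passed the threshold, 2 of them with the other sign; the cause was not tested. No paired test was run, because the labels give mouse 12 as the source of all secondary tumours and no replicate numbers that the groups share. In primary T-LBL, normexp gave 1 call instead of 0, and in secondary T-LBL array weights, whose estimation stopped before convergence, gave 4: Il7r 0.11 (adjusted p = 2.19e-11), Socs1 0.11 (1.35e-09), Ptpn2 0.06 (2.71e-06) and Stat5a and Stat5b −0.02 (0.0415). Locus values at or beyond the threshold numbered 2, but 4 with only values well above background in both dyes, 6 at 0.15, 0 at 0.4, 3 with normexp (all above 0, against 1 above and 1 below), 1 without M7, M9 and M12.52, and 1 without M7 and M12.52. Differences from the flanks numbered 1, but 0 with normexp, 2 with well-measured values and 2 with the series table. The scan block gave the 2 contrasts between groups alone.

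Sign changes against the reference were as follows. In primary T-LBL, Jak1 was −0.01 with array weights, −0.01 with the median over positions, −0.03 with well-measured values, −0.00 with the series table, −0.00 without M7, M9 and M12.52, and −0.03 without M7 and M12.52. Jak3 was 0.12 with weights, 0.10 with normexp, 0.27 without M7, M9 and M12.52, and 0.10 without M7 and M12.52. Stat5a and Stat5b was −0.00 with the median, −0.02 with well-measured values and −0.02 without M7 and M12.52. Ptpn2 was −0.03 with weights, −0.08 without M7, M9 and M12.52, and −0.05 without M7 and M12.52, and Il7r was −0.04 with well-measured values. In secondary T-LBL, Jak3 was 0.01 with weights. Socs1 was 0.11 with weights, 0.01 with normexp, 0.00 with well-measured values and 0.06 with M12.53 turned. Ptpn2 was 0.06 with weights, 0.01 with origin as a random block and 0.01 with M12.53 turned, and Stat5a and Stat5b was 0.02 with M12.53 turned.

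Between groups, secondary minus primary changed sign for Jak1 at 0.01 (weights, well-measured values, scan block and without M7 and M12.52). It did so for Jak3 at 0.01 (well-measured values), 0.14 (scan block), 0.02 (series table) and 0.03 (M12.53 turned), and for Stat5a and Stat5b at 0.13 (scan block) and 0.00 (M12.53 turned). It was 0.18 for Socs1 (scan block), 0.09, 0.06 and 0.02 for Ptpn2 (weights, without M7, M9 and M12.52, and without M7 and M12.52), and −0.04 and −0.11 for Il7r (centring on the mode and normexp). Primary minus myeloid changed sign for Jak3 at −0.12, Stat5a and Stat5b at −0.20 and Socs1 at −0.34 (scan block), for Socs1 at −0.01 (median) and −0.00 (well-measured values), for Il7r at 0.05 (mode) and 0.10 (normexp), and for Ptpn2 at −0.02 (without M7, M9 and M12.52).

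Leaving out 1 array at a time made no locus pass the threshold. The estimates in primary T-LBL then ran from −0.03 to 0.03 for Jak1, −0.19 to 0.10 for Jak3, −0.02 to 0.09 for Stat5a and Stat5b, −0.00 to 0.14 for Socs1 and −0.05 to 0.12 for Ptpn2. In secondary T-LBL they ran from −0.10 to 0.02 for Jak3, −0.04 to 0.04 for Socs1, −0.05 to −0.02 for Jak1, −0.08 to −0.03 for Stat5a and Stat5b and −0.08 to −0.02 for Ptpn2. Il7r ran from 0.07 to 0.10 in primary and from 0.08 to 0.12 in secondary T-LBL. Secondary minus primary ran from −0.07 to −0.01 for Jak1, −0.15 to 0.14 for Jak3, −0.14 to −0.03 for Stat5a and Stat5b, −0.15 to −0.00 for Socs1, −0.17 to 0.00 for Ptpn2 and −0.01 to 0.03 for Il7r. Primary minus myeloid ran from 0.01 to 0.07 for Jak1, 0.01 to 0.12 for Stat5a and Stat5b, 0.02 to 0.18 for Ptpn2, −0.00 to 0.29 for Jak3, −0.04 to 0.11 for Socs1 and −0.02 to 0.01 for Il7r.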
